A study of Mus musculus with 21 samples.

Results

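The 32 genes described here encode myelin proteins, enzymes of myelin lipid synthesis and factors of the oligodendrocyte lineage, and were taken as the rows of a mouse hippocampus count table with those symbols, 32 of 24498 genes. The table comes from RNA sequencing of hippocampus from male mice of 8 weeks, in a study of how the brain responds to ethanol with and without ACSS2, the enzyme that turns acetate, a product of ethanol breakdown, into acetyl-CoA. Ethanol was injected into the peritoneum at a dose of 2 g per kg (a 20% solution in saline), and other mice had no ethanol. The knockdown arm carried the vector AAV2/9 U6.shACSS2.CMV.EGFP, in which the U6 promoter drives a short hairpin RNA against Acss2 and the CMV promoter drives a green fluorescent marker. The sample protocol places this vector in the dorsal hippocampus by stereotaxic injection, while the series' own design text reads as a systemic injection, and neither describes a vector for the control arm.

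The values below come from 15 ethanol libraries that held over 1000000 reads in genes. They are dorsal knockdown 1 to 4 (n = 4), dorsal control 1 to 3 (n = 3), ventral knockdown 2 to 4 (n = 3), ventral control 1 to 4 (n = 4) and a single knockdown library of total hippocampus. Every one of these groups received ethanol, so no comparison below measures the effect of ethanol. The labels do not say that the libraries came from separate animals, so the p-values measure only the spread between libraries, which may be technical.

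Oligodendrocytes wrap axons in myelin, a stack of membrane held together by a few abundant proteins and enriched in galactolipids, which lets impulses travel fast and supports the axon. The cells arise from precursors under the transcription factors Olig2 and Sox10, and Myrf then switches on the myelin genes. In the hippocampus the densest myelin lies in the alveus and fimbria, white matter that borders the ventricle and the choroid plexus, and myelin is sparser among the cell layers. In whole tissue, fewer oligodendrocytes and less RNA per oligodendrocyte cannot be told apart.

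The 15 libraries held 2819837 to 13240179 gene reads, and the 32 genes together took 0.286% (dorsal control 3) to 1.32% (ventral control 4) of them. All 32 genes were detected in each of these libraries, and the oligodendrocyte label held. Levels are given as CPM, reads per 1000000 gene reads, scaled between libraries by TMM. The dorsal knockdown mean of Acss2, the target of the hairpin, was 30.5 ± 13.9 CPM (SD, n = 4), against 54.8 ± 3.33 CPM (SD, n = 3) in the dorsal controls. Dorsal knockdown 1 to 4 held 44.2, 40.8, 18 and 19.2 CPM, each below the lowest dorsal control at 52.7 CPM. The libraries of these groups did not overlap for 7.02% of all tested genes. The ventral knockdown mean was 43 ± 18.2 CPM (SD, n = 3), against 49.9 ± 3.02 CPM (SD, n = 4) in the ventral controls, and ventral knockdown 3, at 63.5 CPM, lay above each ventral control. The total-hippocampus library, labelled as knockdown, held 58 CPM of Acss2, above each ventral control and 2 of the 3 dorsal controls. The dorsal log2 fold change was -0.84 (standard error 0.32), with an unadjusted p of 0.0199 by edgeR's quasi-likelihood test. After adjustment over all genes, neither group difference passed edgeR's test (adjusted p = 0.964 dorsal and 1.000 ventral).

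Before any group comparison, 2 control libraries stood apart for the myelin genes. A score was formed per library as the mean, over the 32 genes, of log2 CPM (prior count of 1) minus the gene's mean over the 14 dorsal and ventral libraries. Ventral control 4 scored 1.15, that is 2.22 times the average level, and held the highest value of 29 of 32 genes. Dorsal control 3 scored -1.05, 0.484 times the average, and held the lowest value of 20 of 32 genes, with 31 among its 3 lowest. Each lies beyond the other 12 libraries, at opposite ends.

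The remaining libraries covered a narrower range. Dorsal knockdown 1 to 4 scored -0.08, -0.02, 0.35 and 0.45, and dorsal controls 1 and 2 scored 0.44 and 0.43. Ventral knockdown 2 to 4 scored 0.03, -0.02 and -0.65, and ventral controls 1 to 3 scored -0.56, -0.03 and -0.44. The total-hippocampus library scored 0.18. The groups overlapped in every pairing, and the SD of the score within groups was 0.616 when pooled, against group means between -0.21 (ventral knockdown) and 0.17 (dorsal knockdown).

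**Figure D1:**
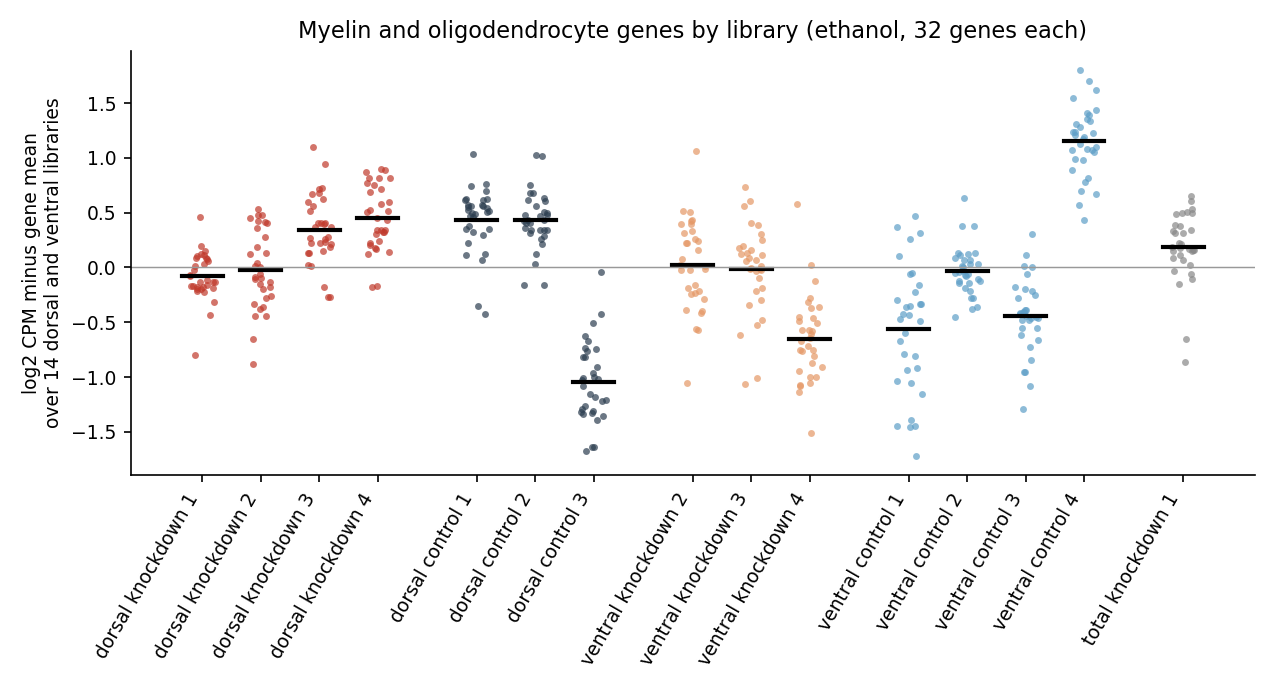
Each point is 1 of the 32 genes, as its log2 CPM minus its mean over the 14 dorsal and ventral libraries, and each bar is the mean of the 32 (the score), by library and coloured by group. Ventral control 4 (score 1.15) lies above and dorsal control 3 (score -1.05) below the other libraries of their groups.

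The genes moved from library to library largely together. Pearson's r of each gene's log2 CPM with the mean of the other 31, over 14 libraries, ran from 0.389 (Apod) to 0.976 (Cldn11) with a median of 0.864, and 23 of 32 genes lay over 0.8. Among 14116 other genes that averaged 1 CPM or more, the median r with the score was -0.01 and 77 (0.545%) lay over 0.8. These points share libraries and scaling, so r describes this set of libraries and carries no p. The genes also spread more than most, with a median SD of log2 CPM of 0.657 against 0.414 over all tested genes that averaged 1 CPM or more. The ratio of highest to lowest library ran from 2.06 (Olig1) to 9.87 (Nipal4).

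**Figure D2:**
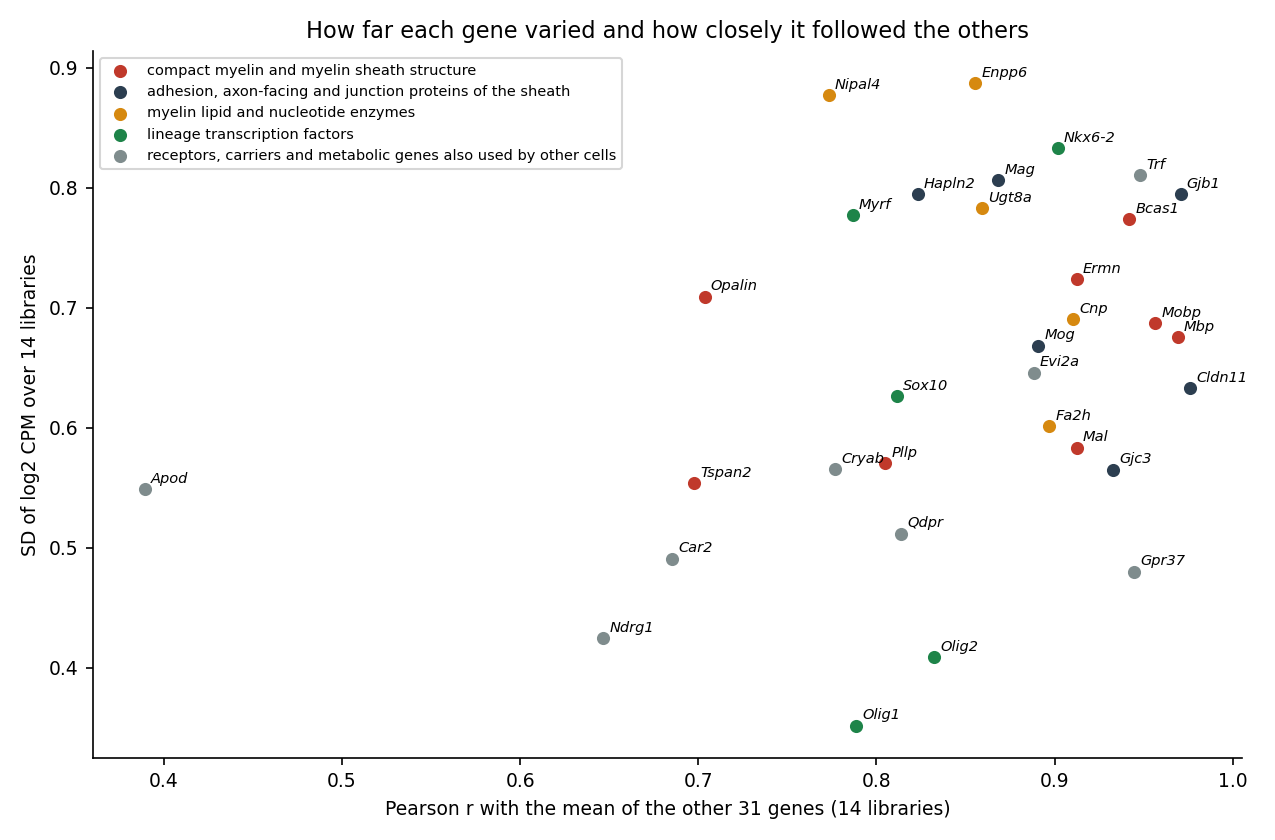
Each point is 1 of the 32 genes, with Pearson's r against the mean of the other 31 over 14 libraries on the x axis and the SD of log2 CPM over the same libraries on the y axis, coloured by role. Apod lies far to the left at 0.389, and the regulators Olig1 and Olig2 have the smallest spread.

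Promoter sequences are shown for the closest follower (Cldn11), the loosest (Apod), the structural gene with most copies of ACAAAG among those at hand (Mobp) and a lineage regulator (Olig2). They are from RefSeq (GRCm38.p6), 5′ to 3′ on the gene's strand, and end just before the annotated start of the gene. Capitals mark ACAAAG, a core that SOX family factors can bind, on either strand (CTTTGT on the other).
Mobp, chr9:120149492-120149706, plus strand: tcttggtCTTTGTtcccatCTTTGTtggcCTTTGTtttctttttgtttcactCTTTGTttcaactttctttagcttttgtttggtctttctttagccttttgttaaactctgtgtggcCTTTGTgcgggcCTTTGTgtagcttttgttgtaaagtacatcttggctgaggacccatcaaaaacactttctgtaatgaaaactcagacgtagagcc
Cldn11, chr3:31149670-31149919, plus strand: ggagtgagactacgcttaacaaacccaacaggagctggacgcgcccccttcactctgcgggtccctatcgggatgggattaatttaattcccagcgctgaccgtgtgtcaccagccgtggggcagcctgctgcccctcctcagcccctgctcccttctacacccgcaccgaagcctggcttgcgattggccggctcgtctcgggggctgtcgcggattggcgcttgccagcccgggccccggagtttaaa
Apod, chr16:31314809-31315058, minus strand: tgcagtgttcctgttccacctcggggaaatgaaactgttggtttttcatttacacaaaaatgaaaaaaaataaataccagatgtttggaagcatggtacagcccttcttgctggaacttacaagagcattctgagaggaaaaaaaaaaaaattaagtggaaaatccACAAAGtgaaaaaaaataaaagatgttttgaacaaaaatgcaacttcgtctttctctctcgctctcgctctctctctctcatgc
Olig2, chr16:91225300-91225456, plus strand: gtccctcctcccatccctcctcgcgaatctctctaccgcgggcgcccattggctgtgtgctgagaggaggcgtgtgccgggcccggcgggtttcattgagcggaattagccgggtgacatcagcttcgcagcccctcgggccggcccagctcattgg
The stretch before Mobp held 6 copies of ACAAAG, that before Apod held 1, and those before Cldn11 and Olig2 held 0. Mobp was the exception, since no other promoter searched for these genes held more than 1 copy. Among other structural genes, Mal, Ermn and Pllp held 0, and Opalin and 1 promoter of Tspan2 held 1. Of the 32 genes, 21 were matched in the RefSeq table, with 27 promoters, and the 250 bases before the start were searched. Mbp, Bcas1, Fa2h, Myrf, Sox10, Olig1, Evi2a, Trf, Car2, Cryab and Ndrg1 were not matched.

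ACAAAG occurred in 33.3% of these promoters and in 16.5% of all 32851, and ACAATG, a related SOX core, in 18.5% and 10.7%. CAGCTG and CATATG, forms of the E-box read by factors such as Olig2, occurred in 7.41% and 11.1% of the promoters of these genes and in 13.0% and 3.46% of all. TATAAA, the TATA box, occurred in 7.41% and 12.4%. Promoters of the same gene can share bases, and a match of letters is a description and not a binding site. The Cldn11 promoter held none of the motifs searched.

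Among the structural proteins of the sheath, Mbp was the most abundant of all 32 genes. It encodes myelin basic protein, which zips the cytoplasmic faces of the membrane together, and at a mean of 333 CPM per kb of exon it held 36.7% to 48.7% of the reads of the 32 genes in each library. Its level was 2755, 2138, 3291 and 4185 CPM in dorsal knockdown 1 to 4 and 3940.1, 3456 and 1104 CPM in dorsal control 1 to 3. In ventral hippocampus Mbp read 2282, 2926 and 1633 CPM in knockdown 2 to 4 and 1353, 2339, 1909 and 6218 CPM in control 1 to 4, and in total hippocampus 2857 CPM. Dorsal control 3 was lowest and ventral control 4 highest, and the knockdown libraries of both regions lay between them.

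Mobp (chromosome 9, 120149707 to 120181484, plus strand, GRCm38 like all positions here, annotated by GENCODE M21) encodes a small basic protein of compact myelin. Mobp stood at 386, 337, 489.9 and 624 CPM in dorsal knockdown 1 to 4, against 566, 469.9 and 119 CPM in dorsal control 1 to 3. The ventral values were 412, 366 and 242 CPM in knockdown 2 to 4 and 274, 304, 279.6 and 834 CPM in control 1 to 4, and the total-hippocampus value was 417 CPM. Without ventral control 4 the ventral controls lay close together, at 286 ± 16.1 CPM (SD, n = 3), inside the range of the ventral knockdown libraries. Mal (chromosome 2, 127633226 to 127656695, minus strand) encodes a membrane protein that sorts cargo into myelin. Dorsal knockdown 1 to 4 held 182, 286, 225 and 244 CPM of Mal and dorsal control 1 to 3 held 222, 284 and 88.3 CPM. Ventral knockdown 2 to 4 held 202, 233 and 122 CPM, ventral control 1 to 4 held 184, 198, 149.7 and 485 CPM and total hippocampus held 238 CPM. The other ventral controls overlapped the ventral knockdown libraries, and dorsal control 3 was again the lowest library.

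Opalin (chromosome 19, 41061710 to 41077113, minus strand) encodes a glycoprotein of the oligodendrocyte surface. In the dorsal samples, Opalin measured 17.5, 26.8, 30.6 and 24 CPM in knockdown 1 to 4 and 20.9, 17.2 and 7.77 CPM in control 1 to 3. In the ventral ones it measured 27.4, 29.3 and 9.54 CPM in knockdown 2 to 4 and 23.1, 20.4, 7.80 and 33.9 CPM in control 1 to 4, and it measured 20.4 CPM in total hippocampus. Here dorsal control 3 and ventral control 3 were about equally low, and dorsal knockdown 3 lay near ventral control 4. Ermn (chromosome 2, 58045113 to 58052864, minus strand) encodes ermin, a cytoskeletal protein of the mature cell. Values of Ermn in dorsal hippocampus were 58.1, 67.2, 58 and 83 CPM in knockdown 1 to 4 and 97, 99.6 and 25.5 CPM in control 1 to 3. Those in ventral hippocampus were 78.5, 56.2 and 31 CPM in knockdown 2 to 4 and 63.2, 68.4, 47.7 and 201 CPM in control 1 to 4, beside 62.6 CPM in total hippocampus. Ventral control 4 again stood far above the other ventral controls, and dorsal controls 1 and 2 lay above each of the dorsal knockdown libraries. Ermn shares part of its span with Galnt5 on the other strand, and the sources used here do not give the strand setting of the counting, so a share of its reads cannot be assigned with certainty.

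Pllp, which encodes the membrane protein plasmolipin, had the smallest ratio of highest to lowest library in this role, 2.98. For Pllp, dorsal values were 44.5, 68.8, 74.2 and 72.4 CPM in knockdown 1 to 4 and 64, 51.3 and 28.5 CPM in control 1 to 3. Ventral Pllp was at 66.1, 62.1 and 25.1 CPM in knockdown 2 to 4 and at 39.2, 54.9, 26 and 74.7 CPM in control 1 to 4, with 65.6 CPM in total hippocampus. Ventral control 3 and ventral knockdown 4 were about equally low, and ventral control 4 was level with dorsal knockdown 3. Tspan2, a tetraspanin whose span overlaps Tspan2os and Tshb on the other strand, followed the set loosely (r = 0.698). Its level was 99.1, 151, 131 and 132 CPM in dorsal knockdown 1 to 4 and 88.5, 141 and 57.8 CPM in dorsal control 1 to 3. In ventral hippocampus Tspan2 read 148, 118 and 70.8 CPM in knockdown 2 to 4 and 157, 107, 63 and 224 CPM in control 1 to 4, and in total hippocampus 115 CPM. Ventral control 1, low for most of the genes, was second only to ventral control 4 for Tspan2. Bcas1, made as oligodendrocytes begin to myelinate and overlapping Bcas1os2 on the other strand, ran from 58.3 CPM in dorsal control 3 to 428 CPM in ventral control 4.

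**Figure D3:**
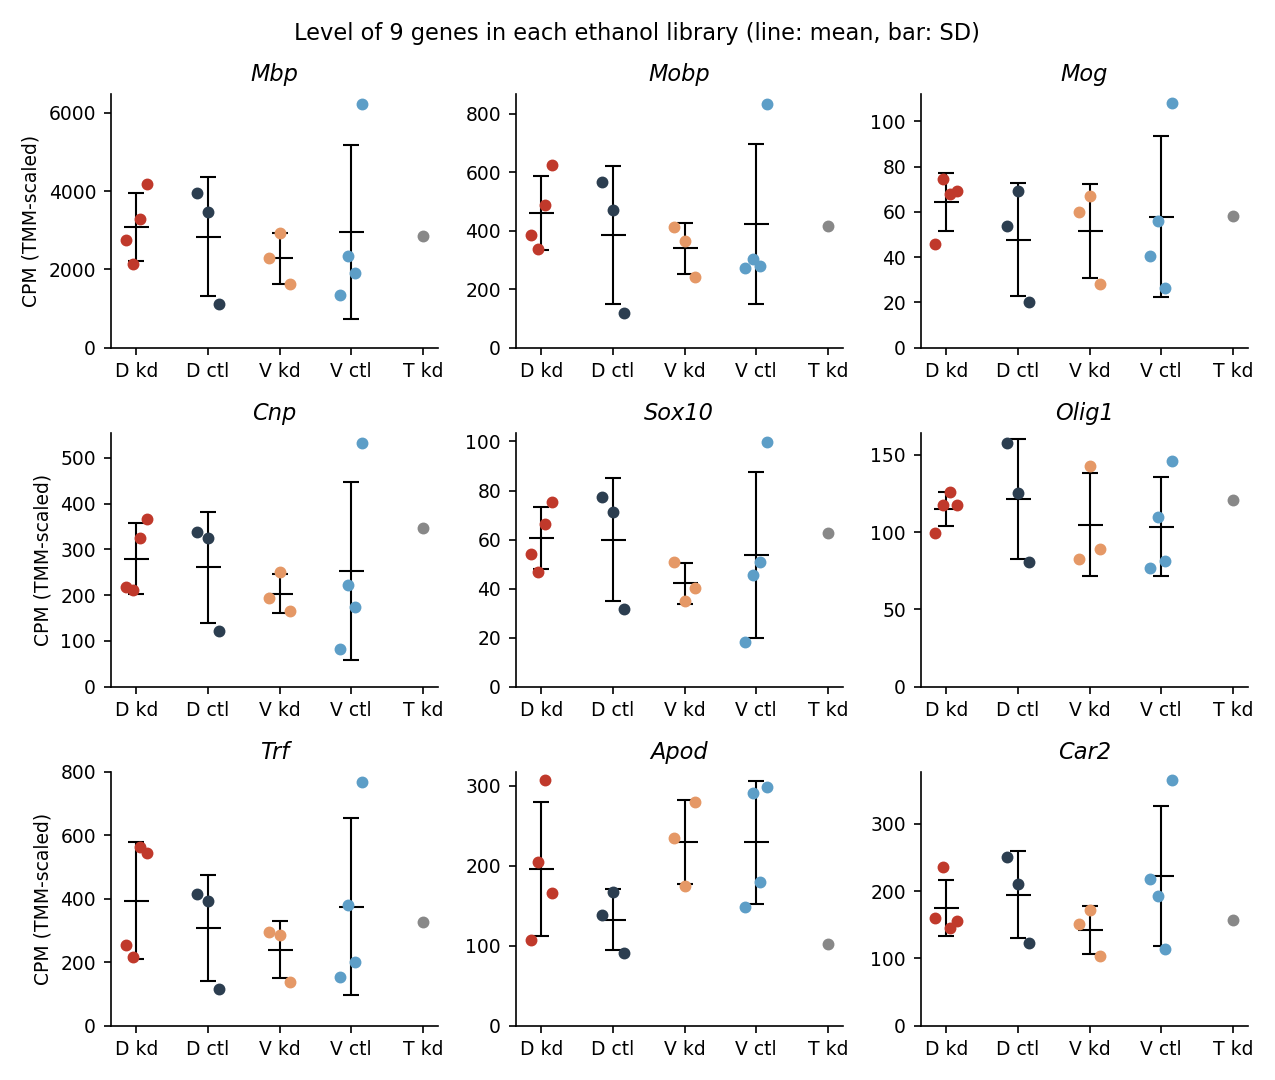
TMM-scaled CPM of 9 genes in each library, with the group mean as a line and its SD as a bar, for dorsal knockdown (D kd, n = 4), dorsal control (D ctl, n = 3), ventral knockdown (V kd, n = 3), ventral control (V ctl, n = 4) and the single total-hippocampus knockdown library (T kd). In each panel but Olig1 and Apod the highest point is ventral control 4.

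Proteins that face the axon or join the layers came next. Mog (chromosome 17, 37010743 to 37023398, minus strand) encodes a glycoprotein of the outermost sheath. Mog stood at 45.6, 74.4, 67.9 and 69.2 CPM in dorsal knockdown 1 to 4, against 53.8, 69.2 and 20.2 CPM in dorsal control 1 to 3. The ventral values were 59.8, 67.2 and 28 CPM in knockdown 2 to 4 and 40.6, 56.2, 26.4 and 108 CPM in control 1 to 4, and the total-hippocampus value was 58.3 CPM. The dorsal knockdown libraries overlapped the dorsal controls, whose lowest library pulled their mean down to 47.7 ± 25.1 CPM (SD, n = 3) against 64.3 ± 12.8 CPM (SD, n = 4). Mag (chromosome 7, 30899176 to 30914873, minus strand) encodes the adhesion molecule of the innermost layer, next to the axon. Dorsal knockdown 1 to 4 held 178, 119, 249 and 274 CPM of Mag and dorsal control 1 to 3 held 239.7, 242 and 77.2 CPM. Ventral knockdown 2 to 4 held 117, 169.7 and 105 CPM, ventral control 1 to 4 held 47.1, 141, 137 and 394 CPM and total hippocampus held 220.1 CPM. Ventral control 1 held the lowest value for Mag, in place of dorsal control 3. Cldn11, which forms the tight junctions between myelin layers, is the gene that most closely followed the rest (r = 0.976). In the dorsal samples, Cldn11 measured 131, 139.9, 229 and 196 CPM in knockdown 1 to 4 and 190.4, 169 and 60.8 CPM in control 1 to 3. In the ventral ones it measured 161, 138 and 79.1 CPM in knockdown 2 to 4 and 86.8, 135, 94.5 and 302 CPM in control 1 to 4, and it measured 157 CPM in total hippocampus. Its order of libraries was close to that of the score, with dorsal control 3 and ventral knockdown 4 lowest.

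The gap-junction genes Gjc3 and Gjb1 and the nodal matrix gene Hapln2 completed this role. Gjb1 (chromosome X, 101376378 to 101385629, plus strand) encodes connexin 32, which couples the layers of the sheath. Values of Gjb1 in dorsal hippocampus were 12.5, 11.8, 17.9 and 17.9 CPM in knockdown 1 to 4 and 19.1, 19.9 and 4.83 CPM in control 1 to 3. Those in ventral hippocampus were 9.61, 10.4 and 6.22 CPM in knockdown 2 to 4 and 5.23, 11.2, 8.76 and 34.7 CPM in control 1 to 4, beside 14.7 CPM in total hippocampus. Each dorsal knockdown library lay above each ventral knockdown library, the single instance among the 32 genes in which the libraries of any 2 groups compared did not overlap. Gjc3 ran from 23.1 to 112 CPM and Hapln2, whose protein links matrix at nodes of Ranvier, from 11.8 to 73.9 CPM, both from dorsal control 3 to ventral control 4.

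The genes of the lipid and nucleotide role (Ugt8a, Fa2h, Cnp, Enpp6 and the transporter gene Nipal4) varied with the structural genes. Ugt8a (chromosome 3, 125865271 to 125938619, minus strand) makes galactosylceramide, the main galactolipid of myelin. For Ugt8a, dorsal values were 33.2, 24.6, 38 and 43.2 CPM in knockdown 1 to 4 and 38.7, 64.3 and 15.8 CPM in control 1 to 3. Ventral Ugt8a was at 39.3, 15 and 18.7 CPM in knockdown 2 to 4 and at 18.2, 34.2, 26.1 and 103 CPM in control 1 to 4, with 41.4 CPM in total hippocampus. Ventral knockdown 3 was lowest for this gene although its score was near the average. Fa2h (chromosome 8, 111345135 to 111393824, minus strand) adds the hydroxyl group to the fatty acids of these lipids. Its level was 35.7, 23.5, 35.1 and 39.5 CPM in dorsal knockdown 1 to 4 and 46.3, 44.6 and 19.1 CPM in dorsal control 1 to 3. In ventral hippocampus Fa2h read 38, 22.9 and 21.5 CPM in knockdown 2 to 4 and 18.2, 32.2, 27.9 and 85.4 CPM in control 1 to 4, and in total hippocampus 40.7 CPM. Ventral control 1 and dorsal control 3 were the lowest libraries. Cnp (chromosome 11, 100574904 to 100591729, plus strand) encodes a phosphodiesterase that keeps cytoplasmic channels in myelin open, and it overlaps Dnajc7 on the other strand. Cnp stood at 218, 211, 325 and 366 CPM in dorsal knockdown 1 to 4, against 338, 324 and 121 CPM in dorsal control 1 to 3. The ventral values were 194, 249.8 and 166 CPM in knockdown 2 to 4 and 83.2, 223, 174 and 532 CPM in control 1 to 4, and the total-hippocampus value was 347 CPM. Ventral control 1 lay below dorsal control 3 for Cnp, as it did for Mag.

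The 2 genes of this role with the lowest levels had the widest spread of all 32. Enpp6, a choline phosphodiesterase of newly myelinating cells, ran from 1.56 CPM (ventral knockdown 4) to 12.8 CPM (ventral control 4), with an SD of log2 CPM of 0.887. Nipal4, a magnesium transporter, had an SD of 0.877. Dorsal knockdown 1 to 4 held 4.12, 2.42, 3.92 and 6.68 CPM of Nipal4 and dorsal control 1 to 3 held 5.78, 7.99 and 1.40 CPM. Ventral knockdown 2 to 4 held 3.82, 1.86 and 3.94 CPM, ventral control 1 to 4 held 1.80, 2.81, 4.81 and 13.8 CPM and total hippocampus held 5.53 CPM. At these levels the number of reads per library is small, and counting error adds to the spread.

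Among the lineage factors, Olig1 and Olig2 varied least of all 32 genes. Olig1 (chromosome 16, 91269772 to 91271933, plus strand) is a basic helix-loop-helix factor of precursors and mature cells. In the dorsal samples, Olig1 measured 99.6, 118, 126 and 117 CPM in knockdown 1 to 4 and 158, 125 and 80.5 CPM in control 1 to 3. In the ventral ones it measured 82.6, 143 and 88.9 CPM in knockdown 2 to 4 and 76.7, 110.0, 81.3 and 146 CPM in control 1 to 4, and it measured 121 CPM in total hippocampus. Dorsal control 1 and not ventral control 4 was highest, and the SD of log2 CPM was 0.352. Olig2 (chromosome 16, 91225457 to 91228677, plus strand) is its relative that specifies the lineage. Values of Olig2 in dorsal hippocampus were 32, 26.3, 35.1 and 33.1 CPM in knockdown 1 to 4 and 41.4, 37.3 and 18.9 CPM in control 1 to 3. Those in ventral hippocampus were 19.7, 32.7 and 27 CPM in knockdown 2 to 4 and 19.3, 30.6, 24.6 and 47.5 CPM in control 1 to 4, beside 31.7 CPM in total hippocampus. Its highest library held 2.51 times the lowest, against 5.63 times for Mbp, and its SD of log2 CPM was 0.409.

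Sox10, Myrf and Nkx6-2 spread more widely. Sox10 (chromosome 15, 79154908 to 79165240, minus strand) keeps the lineage identity and acts on myelin genes. For Sox10, dorsal values were 54.3, 47, 66.2 and 75.5 CPM in knockdown 1 to 4 and 77.4, 71.2 and 31.5 CPM in control 1 to 3. Ventral Sox10 was at 51, 34.9 and 40.4 CPM in knockdown 2 to 4 and at 18.2, 45.7, 50.7 and 99.6 CPM in control 1 to 4, with 62.8 CPM in total hippocampus. Ventral control 1 was the lowest library, below dorsal control 3. Myrf (chromosome 19, 10208272 to 10240748, minus strand) is the factor that starts the myelin programme. Its level was 107, 42.1, 101 and 111 CPM in dorsal knockdown 1 to 4 and 159.7, 119 and 44 CPM in dorsal control 1 to 3. In ventral hippocampus Myrf read 65.4, 61.4 and 60.4 CPM in knockdown 2 to 4 and 28.3, 64.1, 78 and 199 CPM in control 1 to 4, and in total hippocampus 122 CPM. Ventral knockdown libraries were close together at 62.4 ± 2.66 CPM (SD, n = 3), while dorsal knockdown 2 lay far below the other dorsal knockdown libraries. Nkx6-2, a homeobox factor of mature oligodendrocytes that overlaps Inpp5a on the other strand, ran from 3.99 CPM (dorsal control 3) to 28 CPM in dorsal knockdown 3 and ventral control 4.

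The last role holds carriers, receptors and metabolic genes that other cells also use, and it contained both close and loose followers. Trf (chromosome 9, 103204001 to 103230444, minus strand) encodes transferrin, the iron carrier, made by oligodendrocytes and by choroid plexus. Trf stood at 255, 215, 562 and 544 CPM in dorsal knockdown 1 to 4, against 415, 393 and 117 CPM in dorsal control 1 to 3. The ventral values were 296, 286 and 138 CPM in knockdown 2 to 4 and 153, 381, 199.8 and 768 CPM in control 1 to 4, and the total-hippocampus value was 326 CPM. Dorsal knockdown 3 and 4 lay above dorsal controls 1 and 2 for Trf, and dorsal knockdown 1 and 2 below them. Gpr37, a receptor of the oligodendrocyte surface, ran from 39.2 CPM (dorsal control 3) to 141 CPM (ventral control 4) and kept an r of 0.945 with a small SD of 0.480.

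Apod (chromosome 16, 31296192 to 31314808, minus strand) encodes apolipoprotein D, made by oligodendrocytes and by meningeal and perivascular cells. Dorsal knockdown 1 to 4 held 107, 204, 307 and 166 CPM of Apod and dorsal control 1 to 3 held 139, 167 and 91.5 CPM. Ventral knockdown 2 to 4 held 235, 175 and 280.1 CPM, ventral control 1 to 4 held 148, 291, 179 and 298 CPM and total hippocampus held 103 CPM. Dorsal knockdown 3 was highest, and ventral knockdown 4, low for most of the genes, was among the 4 highest, 1.23 log2 units above what its score would give. The meningeal fibroblast list was highest in that same library, with a score of 2.31, and the part of those cells in the Apod level was not tested.

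Car2 (chromosome 3, 14886273 to 14900770, plus strand) encodes carbonic anhydrase 2. In the dorsal samples, Car2 measured 160.1, 236, 146 and 155 CPM in knockdown 1 to 4 and 251, 210.2 and 123 CPM in control 1 to 3. In the ventral ones it measured 151, 173 and 103 CPM in knockdown 2 to 4 and 218, 192, 115 and 365 CPM in control 1 to 4, and it measured 158 CPM in total hippocampus. Ventral control 3 and ventral knockdown 4 were low, and ventral control 4 was highest. Cryab (chromosome 9, 50751325 to 50756636, plus strand) encodes a small heat-shock chaperone, made also by astrocytes, and it overlaps Hspb2 on the other strand. Values of Cryab in dorsal hippocampus were 92.9, 131, 113 and 112 CPM in knockdown 1 to 4 and 133, 111 and 50.1 CPM in control 1 to 3. Those in ventral hippocampus were 137, 110.4 and 49 CPM in knockdown 2 to 4 and 131, 98.5, 61.5 and 189 CPM in control 1 to 4, beside 64.7 CPM in total hippocampus. Ventral knockdown 4 and dorsal control 3 were about equally low. Ndrg1, a gene of myelinating cells that also responds to hypoxia, hardly followed the low library. For Ndrg1, dorsal values were 95.4, 93, 88.3 and 120.0 CPM in knockdown 1 to 4 and 148, 142 and 104 CPM in control 1 to 3. Ventral Ndrg1 was at 81.2, 108 and 82.3 CPM in knockdown 2 to 4 and at 115, 83.2, 78.5 and 225 CPM in control 1 to 4, with 105 CPM in total hippocampus. Dorsal control 3 lay in the middle of the range for Ndrg1, 1.01 log2 units above what its score would give. Qdpr, which recycles a pterin cofactor, and Evi2a, which lies within Nf1 on the other strand, ran from 98.1 to 281 CPM and from 7.42 to 43.2 CPM, both from dorsal control 3 to ventral control 4.

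When the 10 genes known also from other brain cells (Trf, Car2, Cryab, Apod, Cldn11, Ndrg1, Qdpr, Gpr37, Tspan2 and Evi2a) were left out, the score of the other 22 was 1.21 in ventral control 4 and -1.12 in dorsal control 3. The 10 alone scored 1.03 and -0.89. Both sets therefore placed the same 2 libraries at the ends.

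Other genes of the lineage were described beside the 32. Of 30 further genes of mature oligodendrocytes, the median r with the score was 0.760, and their list scored 0.96 in ventral control 4 and -0.86 in dorsal control 3. A list of 20 genes of precursors and newly formed oligodendrocytes had a median r of 0.228. Its score was also highest in ventral control 4, at 0.34, but was -0.03 in dorsal control 3 and lowest, -0.53, in ventral knockdown 3. The 18 signals and regulators of myelination had a median r of 0.179. Pdgfra, the growth factor receptor that marks precursors, stood at 62.4 CPM in ventral control 4 and 54.3 CPM in dorsal control 3, the libraries farthest apart for Mbp. Its highest value, 76.2 CPM, was in ventral knockdown 4, where the meningeal fibroblast list was also highest. The part of meningeal cells in the Pdgfra level was not tested.

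Outside the 32, the genes whose log2 CPM most closely tracked the score over 14 libraries, of 11362 that averaged 5 CPM or more, were Tmem88b (r = 0.960), S1pr5 (0.954), Slc44a1 (0.954), Rhog (0.947), Litaf (0.942), Prr5l (0.939), Tmem125 (0.924), Sept4 (0.916) and Pigz (0.915). Each was highest in ventral control 4 and lowest in dorsal control 3, which follows in part from choosing genes by r with a score whose ends are those libraries. Tmem88b, S1pr5, Rhog, Prr5l, Tmem125 and Sept4 belong to the list of 30 further mature oligodendrocyte genes above, so they repeat part of that result. S1pr5, a sphingosine phosphate receptor of oligodendrocytes, ran from 7.70 to 35.1 CPM, and Slc44a1, a choline transporter, from 43.5 to 126 CPM.

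Markers of neighbouring tissue moved with some of these libraries. All 12 choroid plexus markers were detected in ventral control 4, where their summed level was 19962 CPM and their score 5.33. The sum was 163, 242 and 836 CPM in ventral control 1 to 3. It was 135 to 730 CPM in dorsal control and 222 to 473 CPM in dorsal knockdown, and 151 to 228 CPM in ventral knockdown, where up to 2 of the 12 markers were at 0. Ttr, transthyretin, the most abundant choroid plexus transcript, stood at 14449 CPM in ventral control 4 and at 16.1 to 559 CPM in the other ventral controls. Ependymal markers scored 2.74 in ventral control 4 and were lowest (-2.07) in ventral knockdown 4. Their part in the myelin gene levels was not tested.

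In dorsal control 3 the choroid plexus score was -1.43 and the meningeal score 1.05. Ventral control 4, the highest library for the myelin genes, had a nearly equal meningeal score of 0.98. Ventral control 3 scored 1.11 for choroid plexus and -0.44 for the myelin genes, and ventral knockdown 2 scored -1.53 and 0.03. The summed level of the 12 meningeal markers was 246 to 1245 CPM in dorsal control, 215 to 786 CPM in dorsal knockdown, 289 to 3555 CPM in ventral knockdown and 270 to 1715 CPM in ventral control, with 0 markers at 0 in any library. The highest sum was in ventral knockdown 4, the lowest of the ventral knockdown libraries for the myelin genes. The part of meningeal tissue in those levels was not tested.

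**Figure D4:**
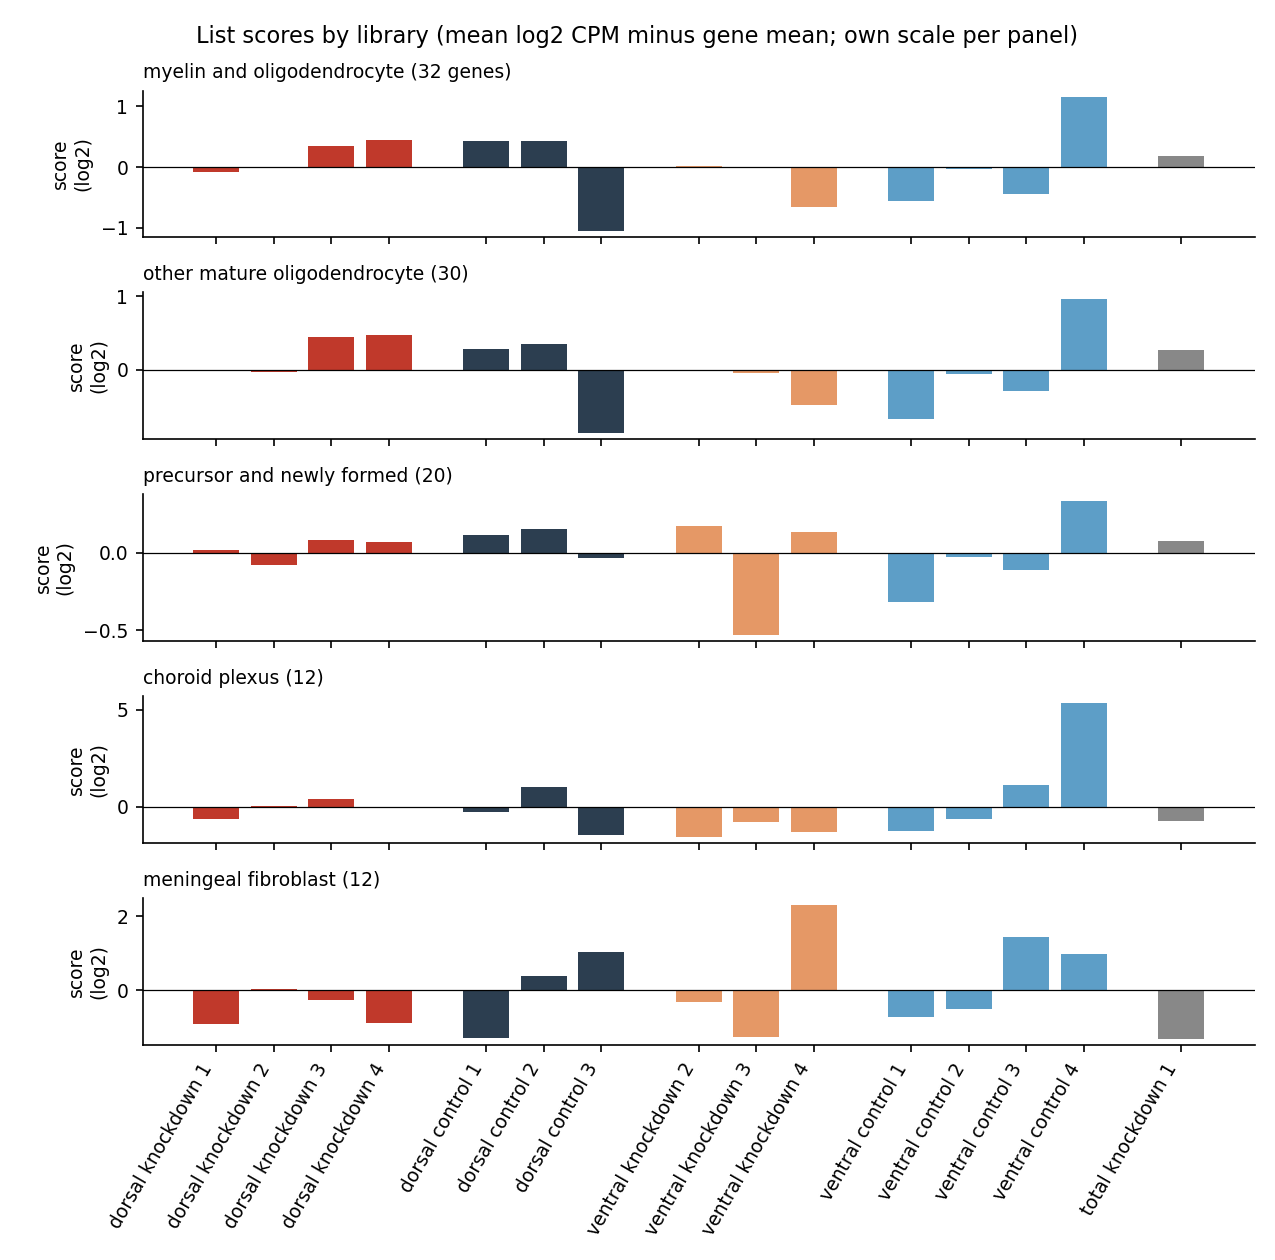
Score of 5 gene lists in each library (mean over genes of log2 CPM minus the gene's mean over the 14 dorsal and ventral libraries), with its own y scale per panel and bars coloured by group. The 30 other mature oligodendrocyte genes follow the 32 genes, ventral control 4 is also the choroid plexus maximum (5.33), and ventral knockdown 4 is the meningeal maximum (2.31).

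The first comparison asked whether knockdown changed the myelin genes in dorsal hippocampus, the injected region in the sample protocol. None of the 32 was called: 20 estimates were above 0 and 12 below, with a median log2 fold change of 0.09 against 0.03 over all tested genes. The estimates ran from -0.40 (Ndrg1) to 0.73 (Opalin), with standard errors of 0.28 to 0.68. Genes were called at an adjusted p under 0.05, which 0% of 14578 genes reached, and an unadjusted p under 0.05 was reached by 4.58% of genes and by 0 of the 32. The libraries of the groups did not overlap for 7.02% of all genes and for 0 of the 32.

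The nearest to a difference was Apod, at a log2 fold change of 0.57 (SE 0.36) and the smallest p of the 32, with adjusted p = 0.999 by edgeR's quasi-likelihood test. Opalin was estimated at 0.73 (SE 0.48), with adjusted p = 0.999 by the same test. By role, 7 of 8 structural genes were above 0 (median 0.29) and 4 of 6 adhesion and junction genes (0.11). So were 2 of 5 genes of the lipid and nucleotide role (-0.12), 2 of 5 lineage factors (-0.02) and 5 of 8 carriers and metabolic genes (0.14). The direction rested on single libraries, since without dorsal control 3 the median of the 32 was -0.24, with 26 of 32 below 0, and without dorsal knockdown 4 it was -0.04.

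Genes of other lists in the same comparison were as follows. Of 30 other mature oligodendrocyte genes 18 were above 0 (median 0.13), and Cldn14 had the smallest p (2.35 on the log2 scale, SE 0.68, with adjusted p = 0.955 in the edgeR fit). Of 20 precursor genes 9 were above 0 (median -0.05). All 12 microglia markers were above 0, with a median of 1.11 and 8 at an unadjusted p under 0.05 (for C1qb, a complement subunit, 1.59, SE 0.41), as were all 10 reactive astrocyte markers (median 2.21). Dorsal knockdown 3 scored 2.68 for reactive astrocyte markers, against -0.25, -0.09 and 0.43 in dorsal knockdown 1, 2 and 4. The dorsal controls scored -1.01 to -0.77. Of 12 meningeal markers 9 were below 0 (median -0.75), as were 9 of 12 choroid plexus markers (-0.14). Of 12 astrocyte markers 3 were above 0 (median -0.12), of 10 endothelial markers 5 (0.06), of 10 neuronal markers 3 (-0.23), of 9 tested thalamus and habenula markers 5 (0.22), of 4 tested Schwann markers 3 (0.41), and all 10 ependymal markers (0.35). Of 18 signals and regulators of myelination 6 were above 0 (median -0.08). Their part in the myelin gene levels was not tested.

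In ventral hippocampus, away from the injection site that the sample protocol gives, none of the 32 genes was called between knockdown and control either. Of the 32, 28 estimates lay below 0 and 4 above, with a median of -0.34 against -0.01 over all genes, from -0.91 (Ugt8a, SE 0.57) to 0.07 (Pllp). The smallest p was that of Car2, at a log2 fold change of -0.64 (SE 0.36) and adjusted p = 1.000 by edgeR's quasi-likelihood test. Across all genes 0% were called, 4.07% had an unadjusted p under 0.05 and 2.68% had groups that did not overlap, against 0 of the 32 for each.

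All 5 genes of the lipid and nucleotide role (median -0.58) and all 6 adhesion and junction genes (-0.40) were estimated below 0. So were 6 of 8 structural genes (-0.31), 4 of 5 lineage factors (-0.21) and 7 of 8 carriers and metabolic genes (-0.49). Ventral control 4 set this direction: without it the median of the 32 was 0.13 and 24 of 32 lay above 0. For Mbp the ventral control mean was 2955 ± 2213 CPM (SD, n = 4) with that library and 1867 ± 494 CPM (SD, n = 3) without it, against 2280 ± 647 CPM (SD, n = 3) in knockdown. All 12 choroid plexus markers were also estimated below 0 in this comparison, with a median of -5.22, and all 10 ependymal markers, with a median of -2.03. The choroid plexus sum was 19962 CPM in ventral control 4, against 163, 242 and 836 CPM in ventral control 1 to 3. Of 30 other mature oligodendrocyte genes 24 were estimated below 0 (median -0.31), of 20 precursor genes 13 (-0.02) and of 18 signals and regulators 8 (0.03). Microglia (11 of 12) and reactive astrocyte markers (9 of 10) were mostly above 0, with medians of 0.16 and 0.32. The part of these other cells in the myelin gene levels was not tested.

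**Figure D5:**
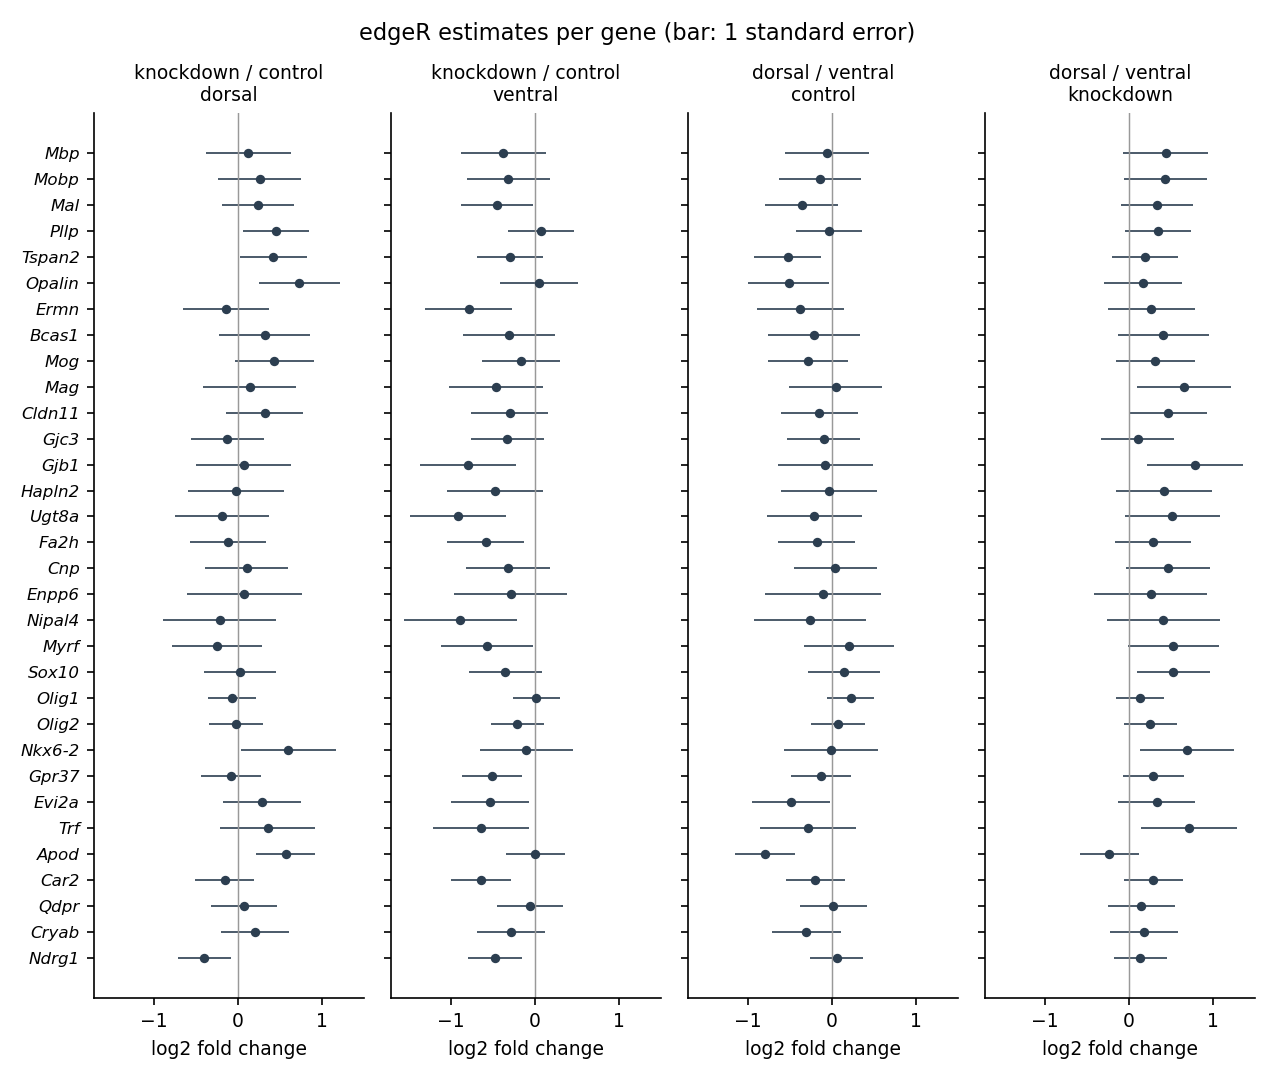
Log2 fold change of each of the 32 genes by edgeR, with bars of 1 standard error, in the 4 comparisons of 2 groups. Estimates lie on both sides of 0 in dorsal hippocampus, mostly below 0 in the ventral comparison and mostly above 0 for dorsal against ventral knockdown, where 31 of 32 are above 0 and none is called.

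The 2 regions were then compared in each arm on its own. In control libraries 24 of 32 genes were estimated lower and 8 higher in dorsal than in ventral, with a median of -0.13 against -0.06 over all genes, and 0% of all genes and 0 of the 32 were called. An unadjusted p under 0.05 was reached by 5.58% of all genes and by 1 of the 32, Apod, and groups did not overlap for 9.27% of all genes and for 0 of the 32. Apod stood at 132 ± 38.2 CPM (SD, n = 3) in dorsal and 229 ± 76.6 CPM (SD, n = 4) in ventral control, a log2 fold change of -0.79 (SE 0.36) with adjusted p = 0.731 by edgeR. The highest estimate was that of Olig1, 0.22 (SE 0.28).

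Here too single libraries turned the direction. Without ventral control 4 the median of the 32 was 0.41 with 27 of 32 above 0, and without dorsal control 3 it was 0.22, also with 27 above 0. Without dorsal control 1 it was -0.37 with all 32 below 0. In the same comparison all 12 choroid plexus markers were estimated lower in dorsal control (median -3.21, 11 at an unadjusted p under 0.05), as were all 10 ependymal markers (-1.60). Ventral control 4 stood apart for both lists. Its choroid plexus sum was 19962 CPM, against 163, 242 and 836 CPM in ventral control 1 to 3 and 135 to 730 CPM in dorsal control. Its ependymal score was 2.74, against 0.22, 0.03 and 0.17 in ventral control 1 to 3. The part of these markers in the myelin gene levels was not tested.

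In knockdown libraries, 31 of 32 genes were estimated higher in dorsal than in ventral, with a median of 0.33 against -0.01 over all genes, and Apod was the exception at -0.23 (SE 0.35). Gjb1 had the highest estimate, 0.78 (SE 0.57), and the smallest p of the 32 (adjusted p = 1.000 by edgeR). It was at 15 ± 3.32 CPM (SD, n = 4) in dorsal and 8.73 ± 2.20 CPM (SD, n = 3) in ventral knockdown, with no overlap between libraries. Groups did not overlap for 1.74% of all genes and for 1 of the 32, which is near that share. An unadjusted p under 0.05 was reached by 2.17% of all genes and by 0 of the 32, and 0% were called.

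By role, all 8 structural genes (median 0.34) and all 6 adhesion and junction genes (0.44) were estimated higher in dorsal knockdown. So were all 5 genes of the lipid and nucleotide role (0.41), all 5 lineage factors (0.53) and 7 of 8 carriers and metabolic genes (0.24). The direction held when any 1 library was left out, with medians of 0.10 to 0.47, and was smallest without ventral knockdown 4. That library also held the highest meningeal score, and 11 of 12 meningeal markers were estimated lower in dorsal than in ventral knockdown, with a median of -1.46. All 12 microglia markers (median 0.79, 4 at an unadjusted p under 0.05), all 10 ependymal (1.06), 10 of 12 choroid plexus (1.33) and 9 of 10 reactive astrocyte markers (0.92) were estimated higher in dorsal knockdown. Dorsal knockdown 3 held the highest reactive astrocyte score, 2.68. The part of these cells in the myelin gene levels was not tested.

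Averaged over both regions, 23 of 32 genes were estimated lower and 9 higher in knockdown, with a median of -0.12 against 0.01 over all genes, and 0% of genes were called. Ndrg1 had the smallest p, with a log2 fold change of -0.44 (SE 0.22), and adjusted p = 1.000 by edgeR. It was lower in knockdown by mean in both regions, at 99.2 ± 14.2 CPM (SD, n = 4) against 131 ± 23.9 CPM (SD, n = 3) in dorsal and 90.4 ± 14.9 CPM (SD, n = 3) against 125 ± 68.4 CPM (SD, n = 4) in ventral hippocampus, with libraries that overlapped. Without ventral control 4 the ventral control mean of Ndrg1 was 92.3 ± 19.9 CPM (SD, n = 3). The lowest and highest estimates were those of Nipal4 (-0.55) and Opalin (0.39). An unadjusted p under 0.05 was reached by 3.96% of all genes and by 0 of the 32. Without ventral control 4 the median of the 32 was 0.14. Beside this, 11 of 12 choroid plexus (median -2.70) and all 10 ependymal markers (-0.84) were estimated lower in knockdown, and all 12 microglia (0.64) and all 10 reactive astrocyte markers (1.22) higher. Ventral control 4 held the highest choroid plexus (5.33) and ependymal (2.74) scores, and dorsal knockdown 3 the highest reactive astrocyte score (2.68). The part of these markers in the myelin gene levels was not tested.

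The difference between the dorsal and the ventral knockdown effect was tested directly. It was above 0 for 31 of 32 genes, with a median of 0.53 against 0.05 over all genes, and ran from -0.09 (Olig1) to 1.00 (Trf). The smallest p was that of Tspan2, at 0.72 (SE 0.56) with adjusted p = 0.998 by edgeR. Across all genes 0% were called and 4.61% had an unadjusted p under 0.05, against 0 of the 32 for each. Without ventral control 4 the median was -0.01, with 15 of 32 above 0, and without dorsal control 3 it was 0.18. The difference was also above 0 for all 12 choroid plexus markers (median 4.62, 8 at an unadjusted p under 0.05), all 10 ependymal markers (2.52) and all 12 microglia markers (0.85), whose part was not tested. Ventral control 4 held the highest choroid plexus (5.33) and ependymal (2.74) scores.

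Some genes left the common pattern in single libraries by amounts that ran with transcript length or base composition. Each gene's deviation from its library's score was compared with the length and GC content of its longest transcript, over the 32 genes and as a description. The values of Spearman's rho that were largest in size were those with length, -0.54 in dorsal knockdown 2 and -0.51 in ventral knockdown 3, and those with GC content, -0.67 in ventral control 1 and -0.56 in ventral knockdown 2. In ventral control 1, Mag (-1.16), Sox10 (-0.90), Cnp (-0.89) and Myrf (-0.89) lay below that library's score and Tspan2 (1.03), Cryab (0.93) and Car2 (0.87) above it, in log2 units. In ventral knockdown 2, Hapln2 (-1.08) lay below and Enpp6 (1.04) above. The ribosomal transcript Rn45s took 1.17%, 1.08% and 0.625% of gene reads in dorsal knockdown 2, ventral knockdown 3 and ventral control 1. In the other 12 libraries it took 3.49% (ventral knockdown 2) to 20.7% (dorsal control 1). The largest positive rho with GC content was 0.47, in dorsal knockdown 1, ventral knockdown 4 and dorsal control 1. Rn45s took 18.2%, 17.4% and 20.7% of gene reads there. The part of RNA quality or library preparation in these deviations was not tested.

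The libraries outside these comparisons held few gene reads. Dorsal knockdown 5 had 40 reads of the 32 genes among 5021 (0.797%, 95% Clopper-Pearson interval 0.570% to 1.08%) and ventral knockdown 1 had 64 among 8744 (0.732%, 0.564% to 0.934%), both inside the range of the deep libraries. The 4 untreated libraries, 2 dorsal knockdown and 2 dorsal control, placed 0.991% to 1.43% of uniquely aligned reads in genes, with 4279 to 221847 gene reads, of which the 32 genes held 0.0883% to 0.132%. In these libraries 3 to 28 of the 32 genes were at 0 reads, and a count of 0 allows up to 13.5 to 701 CPM. The intervals and limits cover counting error only, and no comparison of ethanol with no ethanol was made for the myelin genes.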

How the data were processed

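Hippocampal RNA was sequenced in 21 libraries, made with a directional kit per the labels' protocols. The authors' deposited table holds unnormalized read counts for 24498 genes in 21 columns, with 5 further summary lines. STAR 2.5.2a, HTSeq 0.6.1p1 and the mm10 genome were used, per the submitters' processing notes, and the sources used here do not give the strand setting of the counting. Groups and replicate numbers came from the sample titles, and 0 table columns were left unused. The summary lines stayed out of library sizes and tests.

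The 32 genes, the other gene lists and the tests were chosen with earlier results of these data known. The 14 dorsal and ventral ethanol libraries with over 1000000 gene reads were fitted in 1 model of 4 group means and tested by quasi-likelihood F-tests with edgeR 4.0.16 under R 4.3.3 (TMM scaling, filterByExpr with a minimum count of 10, robust fit, Benjamini-Hochberg adjustment over 14578 genes), and genes were called at an adjusted p under 0.05. Each standard error is the size of the log2 fold change over the root of its F statistic. All 32 genes passed the filter. The total-hippocampus library is a single value, and shallow and untreated libraries entered no test of the fit. Positions and exon lengths are from GENCODE M21.

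Named genes outside the 32 were the 10 with the highest correlation with the score (mean of at least 5 CPM, predicted genes left out), of which 1 is not reported here, and from each gene list up to 3 with the smallest p. Values in every library were set for 19 of the 32 and for those with the smallest p or the lowest or highest estimate in a comparison. The code was tested on simulated counts. Alternatives were RLE scaling, leaving the low-count filter out, a replicate block, all 20 dorsal and ventral libraries, only the groups compared, DESeq2 1.42.0 and leaving out each library.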

Additional observations from a re-analysis of the deposited data

Results flagged for a closer look

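In a group of 4 libraries, a value was singled out where its gap to the nearest library exceeded 0.829 of the group's range, which chance gives in about 1 of 20 groups. Of 66 groups of 4 values tested, 8 met this. The 66 were the 32 genes and their score, each in dorsal knockdown and in ventral control. Since the genes share these libraries and moved together, the 66 are not independent, and 8 of 66 cannot be set against 1 of 20. Of the 8, 6 were ventral control 4, far above the other ventral controls: Mobp at 834.0 CPM (next library 304.2 CPM), Mal at 485.1 CPM (197.8 CPM), Ermn at 201.3 CPM (68.4 CPM), Bcas1 at 428.0 CPM (167.4 CPM), Gjc3 at 112.0 CPM (45.69 CPM) and Gpr37 at 140.9 CPM (67.13 CPM). The other two were both in dorsal knockdown 2. Myrf was at 42.12 CPM there, below the next library at 100.6 CPM, and Car2 was at 236.4 CPM, above the next at 160.1 CPM. In that library the deviations of the 32 genes from the score ran with transcript length (Spearman's rho -0.54). The longest transcript has 5674 bases for Myrf (deviation -0.86) and 1788 bases for Car2 (0.45). The part of length in these 2 values was not tested.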

How the results depend on the processing

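None of the 32 genes was called in any comparison by edgeR or DESeq2 under any alternative run, with a smallest adjusted p of 0.738, 0.7925, 0.4995, 0.861, 0.803 and 0.720 in the order of the report's comparisons. Over all genes, edgeR called 0 in each comparison, and DESeq2 called 11 (dorsal knockdown), 35 (ventral knockdown), 13 (dorsal against ventral control), 0 (dorsal against ventral knockdown), 4 (mean of both regions) and 9 (difference of effects). With all 20 libraries, 1 gene was called for ventral knockdown and 1 for the difference of effects. Leaving out single libraries gave 0 to 8 called genes for ventral knockdown, 0 to 6 for dorsal against ventral control, 0 to 2 for the mean of both regions and 0 to 2 for the difference of effects. The estimate of Pllp in ventral knockdown ranged from -0.16 to 0.41 when single libraries were left out, that of Olig1 from -0.0107 to 0.439 for dorsal against ventral control and from -0.30 to 0.21 for the difference of effects. The cause was not tested. Medians of the 32 genes when single libraries were left out ran from -0.24 to 0.36, -0.55 to 0.13, -0.37 to 0.41, 0.10 to 0.47, -0.31 to 0.14 and -0.01 to 0.74. Replicate numbers were checked for pairing: the deviations of 18 same-numbered pairs correlated at -0.292 to 0.451, with 7 over 0.1 and a median of 0.0472 against 0.0214 for other pairs. Most of these pairs set a knockdown against a control library. The pairs of both regions within 1 arm ran from -0.247 (control 1) to 0.451 (knockdown 4). These values cannot decide whether dorsal and ventral libraries came from the same mice. With the number as a replicate block 0 genes were called, and the medians of the 32 genes were -0.07, -0.25, 0.08, 0.33, -0.13 and 0.35. Depth limits Enpp6 and Nipal4 most, since they had the lowest levels of the 32 genes.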
